A study of Arabidopsis thaliana with 9 samples.

Results

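Anthers of the Arabidopsis thaliana mutant dyt1 were compared with anthers of wild type plants, on 3 arrays of each genotype out of 9 in the series, across the 13355 genes that had a probe set naming 1 gene. The dyt1 group carried a mutation in DYT1 (DYSFUNCTIONAL TAPETUM1), whose allele the labels do not give, and the wild type group was Columbia. Whether the dyt1 plants were also of the Columbia background is not in the labels. If they were not, effects of background and of the mutation cannot be told apart here. Both groups were anthers of stages 4 to 7 dissected from young floral buds of plants aged 3 to 4 weeks, grown at 22 °C with 16 h of light and 8 h of darkness. The labels describe the 3 samples of a genotype as biological replicates. The other 3 arrays came from the mutant ams and entered only the estimate of the spread between arrays. Total RNA was hybridised to Affymetrix arrays, and every level below is a log2 expression value after RMA, so that a difference of 1 is 2-fold. The values carry no detection calls. A group mean at or under 4.77, the highest of the arrays' lower quartiles, is therefore described as one that cannot be told from background, and no fold is given for it.

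The tapetum is the innermost wall layer of the anther and surrounds the meiocytes, the cells that give rise to pollen. It nourishes the developing microspores, secretes the enzymes that release them from their callose wall, and makes lipids, wall precursors and proteins for the exine and the pollen coat before it degenerates. DYT1 is a bHLH transcription factor expressed early in the tapetum, and AMS (ABORTED MICROSPORES), TDF1 and other regulators of the tapetum act after it. No probe set named DYT1 in the annotation used, so the mutated gene itself was not analysed here and its level could not be set against the genotype labels.

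The arrays of a genotype were not alike. The control for 25S ribosomal RNA read 7.42, 11.50 and 6.20 in dyt1 1, 2 and 3, against 5.51, 9.59 and 12.45 in wild type 1, 2 and 3. Arrays above 11 for this control were taken as the high 25S set, which held dyt1 2 and wild type 3, and the others as the low 25S set, which held dyt1 1, dyt1 3, wild type 1 and wild type 2. Actin signal at the 3' end exceeded that at the 5' end, a measure of RNA quality, by 1.04, 2.1 and 1.38 in the dyt1 arrays and 1.25, 1.28 and 2.81 in the wild type arrays. Over probe sets, which are no replicates of each other, dyt1 1 and 3 correlated at 0.992 and wild type 1 and 2 at 0.989, while dyt1 2 and wild type 3 correlated with the others of their genotype at 0.929 to 0.939. The poly-A spike-ins averaged 6.83, 7.25 and 7.20 in dyt1 and 3.89, 3.76 and 7.13 in wild type. Within the low set, genotype and spike-in level cannot be told apart, while in the high set the spike-in means of dyt1 2 and wild type 3 were close. The part of 25S signal, RNA quality and spike-in level in the results was not tested.

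AMS, the bHLH factor that acts after DYT1 in the tapetum, fell in dyt1. Its level was 5.66, 3.96 and 4.78 in dyt1 1, 2 and 3, against 7.93, 7.70 and 7.55 in wild type 1, 2 and 3. Every dyt1 array lay below every wild type array, and dyt1 2 was the lowest. The difference was -2.93 on the log2 scale (SE 0.36, limma with Benjamini-Hochberg adjustment over 22746 probe sets, adjusted p = 0.0288), a fold of 7.61. It was -2.60 in the low set and -3.59 in the high set, and the difference between the sets did not pass (adjusted p = 0.166). Such a change in whole anthers can come from fewer cells of a type or from less RNA per cell, which cannot be told apart in bulk samples. The call of AMS over all arrays was kept in 3 of the 9 omissions of a single array.

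Over all 6 arrays 25 genes were called at an adjusted p under 0.05 in limma, 15 lower (0.112% of the genes tested) and 10 higher (0.0749%) in dyt1, together 0.187%. Among all probe sets, named or not, 44 were called (0.193%), 27 lower and 17 higher. The count rested on the arrays that entered. It was 702 without dyt1 2, 541 without wild type 3 and 3720 without both. It was 4 and 1 without dyt1 1 or 3, 3 and 6 without wild type 1 or 2, and, since the ams arrays share in estimating the spread, 26, 27 and 4 without ams 1, 2 or 3. With 25S set as a block, 274 probe sets were called, 130 higher and 144 lower.

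Besides AMS, the genes called lower in dyt1 included a transporter, an acyl-activating enzyme and loci with no annotated name. AT1G69790 had levels of 5.06, 4.87 and 4.99 in dyt1, against 6.92, 7.04 and 6.86 in wild type (difference -1.97, SE 0.14, adjusted p = 0.00498). AT1G12600 had 5.56, 5.25 and 5.33 in dyt1, against 7.33, 7.15 and 7.40 in wild type (difference -1.91, SE 0.18, adjusted p = 0.0174). AT1G07795 had 6.63, 6.62 and 6.84 in dyt1, against 8.43, 8.65 and 8.60 in wild type (difference -1.87, SE 0.22, adjusted p = 0.0258). In these 3 genes the high 25S arrays did not stand apart from the others of their genotype. AT3G25260, which encodes NPF4.1, a member of the nitrate and peptide transporter family, fell by 3.68 (SE 0.49, adjusted p = 0.0433), with 6.30, 5.52 and 6.25 in dyt1, against 10.11, 10.00 and 9.01 in wild type. AT1G28710 had 6.98, 5.54 and 6.45 in dyt1, against 9.71, 9.61 and 8.93 in wild type (adjusted p = 0.0475). AAE16, an acyl-activating enzyme, had 7.66, 7.57 and 7.43 in dyt1, against 8.63, 8.75 and 8.95 in wild type (difference -1.23, SE 0.17, adjusted p = 0.0475). The dyt1 arrays lay below the wild type arrays in all of these, with no overlap. A call favours such a pattern, which 1100 of all genes (8.24%) also had. AT1G65560 (-2.07), AT3G23880 (-1.95), AT4G16563 (-1.68) and AT5G53750 (-1.46) also fell. AT1G06250, AT5G50030, AT3G18250 and AT1G47480 were called lower as well, with dyt1 means of 4.63, 4.74, 4.08 and 4.2 that cannot be told from background. Apart from AMS and AT3G25260, these genes lie outside the rule for named genes and were chosen after their values were seen, as the complete set of calls.

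The 10 genes called higher in dyt1 included a beta-expansin and a carboxypeptidase-like protein. AT4G03156 had levels of 6.32, 6.32 and 5.82 in dyt1, against 3.96, 3.82 and 3.90 in wild type (difference 2.26, SE 0.17, adjusted p = 0.00498), and the wild type mean cannot be told from background. It was the only one of the 9 named and called genes that kept its call when each of the 9 arrays was left out in turn. EXPB1, a beta-expansin of the kind that loosens plant cell walls, had 7.27, 7.33 and 7.23 in dyt1, against 5.62, 5.62 and 5.07 in wild type (difference 1.84, SE 0.26, adjusted p = 0.0475, 3.58-fold). The 3 dyt1 arrays were nearly level and wild type 3 was the lowest array. AT1G58025 had 10.48, 10.26 and 10.33 in dyt1, against 8.41, 8.03 and 7.83 in wild type (difference 2.27, SE 0.24, adjusted p = 0.0200, 4.81-fold). AT2G16960 had 7.89, 6.51 and 7.80 in dyt1, against 4.46, 3.98 and 4.19 in wild type (difference 3.19, SE 0.34, adjusted p = 0.0200). In this gene dyt1 2 was the lowest dyt1 array but still above all wild type arrays, whose mean cannot be told from background. AT1G35650, whose wild type mean cannot be told from background, AT1G42705 (2.27) and AT4G22390 (1.69) also rose, each on a shared probe set that may also read related genes. scpl46, a serine carboxypeptidase-like protein, rose by 1.24, with 8.16, 7.77 and 7.80 in dyt1 and 6.61, 6.9 and 6.51 in wild type. AT1G49580 (1.34) and AT2G30120 (1.19) rose by similar amounts. The last 3 were chosen after their values were seen.

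To see which genes separated the genotypes in both array sets, a size rule with no test was used. A gene counted where both dyt1 arrays of the low set lay beyond both wild type arrays of that set with a mean difference of at least 1, and where dyt1 2 also differed from wild type 3 by at least 1 in the same direction. In the low set 854 genes were separated (6.39%), 308 lower (2.31%) and 546 higher (4.09%) in dyt1. In the high set, which holds 1 array per genotype, 2200 genes differed by at least 2-fold (16.5%), 1161 lower (8.69%) and 1039 higher (7.78%). Both conditions held in 156 genes (1.17%), of which 128 were lower (0.958%) and 28 higher (0.21%) in dyt1. These are 18.3% of the genes of the low set and 7.09% of those of the high set. All 25 called genes were among the 156.

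**Figure D1:**
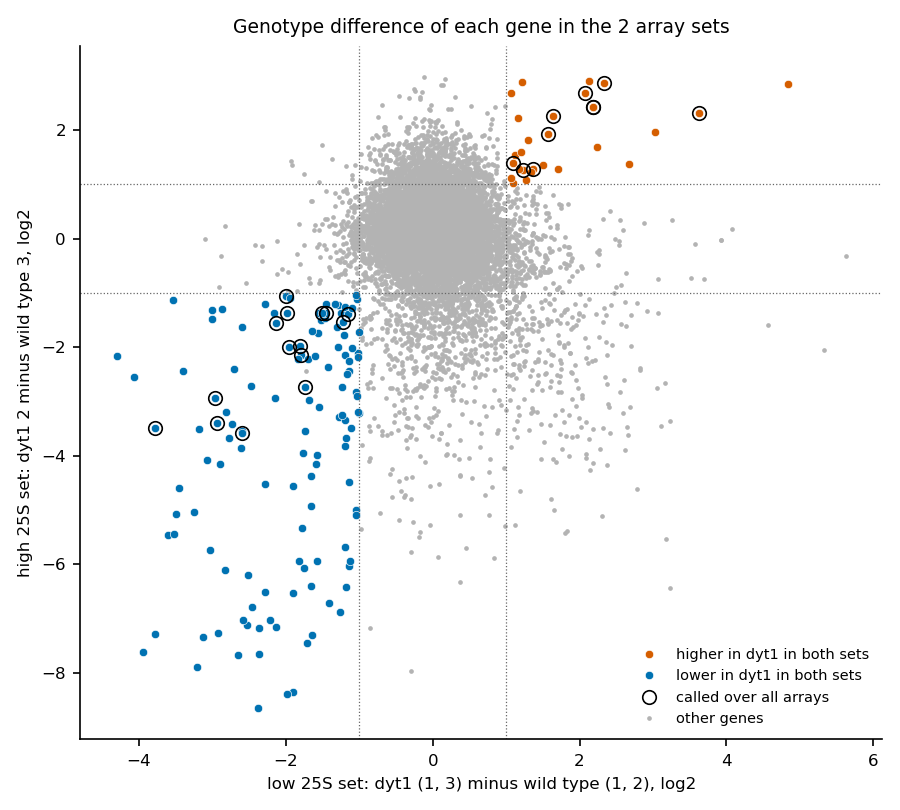
Difference of each of 13355 genes, dyt1 minus wild type in log2, in the low 25S set (horizontal axis, dyt1 1 and 3 against wild type 1 and 2) and in the high 25S set (vertical axis, dyt1 2 against wild type 3). Dotted lines mark a difference of 1, blue points are the 128 genes lower and orange points the 28 genes higher in dyt1 in both sets, rings mark the 25 called genes and grey points are the other genes. The blue points reach much further down the vertical axis than along the horizontal one.

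Genes lower in dyt1 in the low set recurred in the high set in a larger share than genes higher in dyt1, a contrast that was not tested. Of the 308 genes lower in dyt1 in the low set, 41.6% were lower in the high set too and 10 were higher there by at least 2-fold. Of the 546 genes higher in the low set, 5.13% were higher in the high set too, and 250 were lower there by at least 2-fold. A further 438 genes separated in the low set differed by less than 2-fold in the high set, and 1784 genes past 2-fold in the high set were not separated in the low set. Tested over all genes in limma, the difference between the sets passed in 2740 (20.5%), 1361 of them more negative and 1379 more positive in the high set. Among the 156 genes it passed in 42. The lone arrays dyt1 2 and wild type 3 are assumed in that test to vary like the other arrays. By the correlations above they lay further from their genotype than its other arrays from each other, which goes against this assumption. As lone arrays, their distance from their genotype enters the test as a difference and adds nothing to the spread. That choice favours passes, so the counts are a description.

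**Figure D2:**
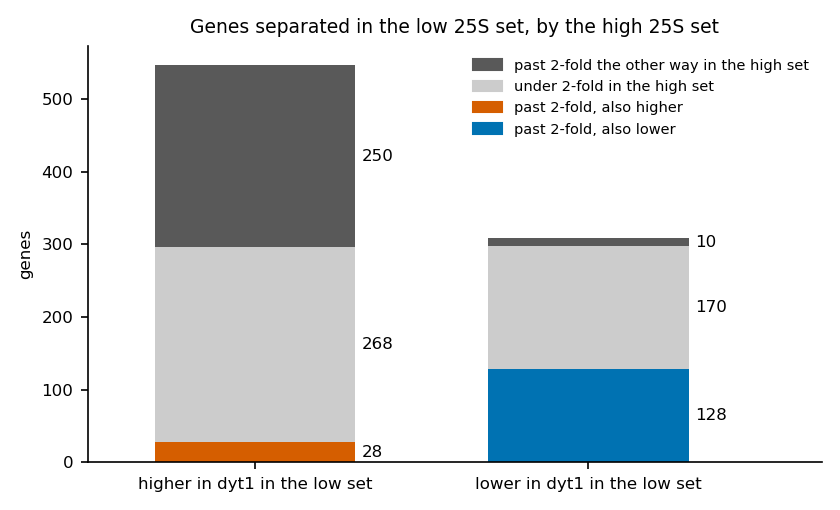
Number of genes separated in the low 25S set, higher in dyt1 on the left and lower in dyt1 on the right, divided by what the high 25S set showed for the same genes. Of the genes higher in the low set, 28 were also higher, 268 differed by less than 2-fold and 250 were lower in the high set. Of the genes lower in the low set, 128 were also lower, 170 differed by less than 2-fold and 10 were higher in the high set.

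The genes lower in both sets had a median difference of -2.44 over all 6 arrays, -1.76 in the low set and -3.31 in the high set, beside medians of 0.03, -0.01 and 0.09 over all genes. Those higher in both sets had medians of 1.58, 1.43 and 1.75. Since the rule requires a difference of at least 1 in each set, it partly fixes the medians of the separated genes. The smaller of the 2 set differences was at least 4-fold in 49 genes, 42 lower and 7 higher, and at least 8-fold in 13, all lower. At the limit, AT1G15350 (-1.01 in the low set and -1.72 in the high set) and AT5G36160 (-1.01 and -3.21) lay just inside, and AT2G42900 (-1.24 and -0.99) and AT1G15330 (-1.97 and -0.96) just outside. The 3 dyt1 levels did not overlap the 3 wild type levels in 150 of the 156 genes, a count that the size rule largely fixes. Of all genes, 1100 had no overlap with dyt1 lower (8.24%) and 1246 with dyt1 higher (9.33%). Both group means were above background in 126 of the 156, the dyt1 mean was not in 25 and the wild type mean was not in 5.

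The 12 genes lowest in dyt1 by this rule included secreted and lipid-binding proteins of the tapetum and several loci with no annotated name. AT5G52160, a lipid transfer protein, had levels of 6.44, 4.25 and 5.98 in dyt1 1, 2 and 3, against 9.82, 10.51 and 11.87 in wild type 1, 2 and 3. The high set lay outermost on both sides, with dyt1 2 lowest and wild type 3 highest, and the difference was -3.95 in the low set and -7.63 in the high set (over all arrays -5.18, SE 0.81, limma adjusted p = 0.0549). ATA27, an anther beta-glucosidase also named BGLU20, had 4.00, 3.69 and 3.88 in dyt1, against 7.16, 7.13 and 11.59 in wild type. All dyt1 arrays were at background levels and wild type 3 lay far above the other wild type arrays (adjusted p = 0.152 over all arrays). AT1G68875 had 3.85, 3.81 and 3.76 in dyt1, against 7.86, 7.32 and 11.10 in wild type. Its pattern was that of ATA27, and its dyt1 mean cannot be told from background. AT1G76470 had 5.997, 5.15 and 6.10 in dyt1, against 8.94, 9.42 and 12.49 in wild type, again highest in wild type 3.

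In the other genes of this group wild type 3 was the lowest wild type array and dyt1 2 the lowest dyt1 array. LCR66, a plant defensin also named PDF2.4, had levels of 6.91, 4.07 and 6.95 in dyt1, against 10.33, 10.73 and 9.54 in wild type. sks18, a protein of the SKU5-similar family of multicopper oxidase-like proteins, had 7.55, 4.33 and 7.21 in dyt1, against 10.73, 10.53 and 9.37 in wild type. AT5G15140 had 7.73, 4.50 and 7.61 in dyt1, against 11.39, 11.01 and 9.95 in wild type. In each of these the low-set difference was between -3.25 and -3.60 and the high-set difference between -5.04 and -5.47, and the groups did not overlap. AT4G29980 had 9.0, 5.22 and 8.85 in dyt1, against 12.43, 12.32 and 9.81 in wild type. AT5G24820 had 7.16, 3.92 and 6.77 in dyt1, against 10.56, 10.38 and 8.997 in wild type. AT5G08250 had 6.33, 4.07 and 6.06 in dyt1, against 9.34, 9.21 and 8.16 in wild type. These 3 showed the same order of arrays, with a spread within a genotype that left the adjusted p over all arrays at 0.227, 0.123 and 0.0733. AT1G67920 had 5.93, 4.74 and 6.26 in dyt1, against 9.21, 9.35 and 8.25 in wild type, with nearly equal differences of -3.19 and -3.52 in the sets (adjusted p = 0.0600). Of these 12 only AT3G25260, given above, was called over all arrays.

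**Figure D3:**
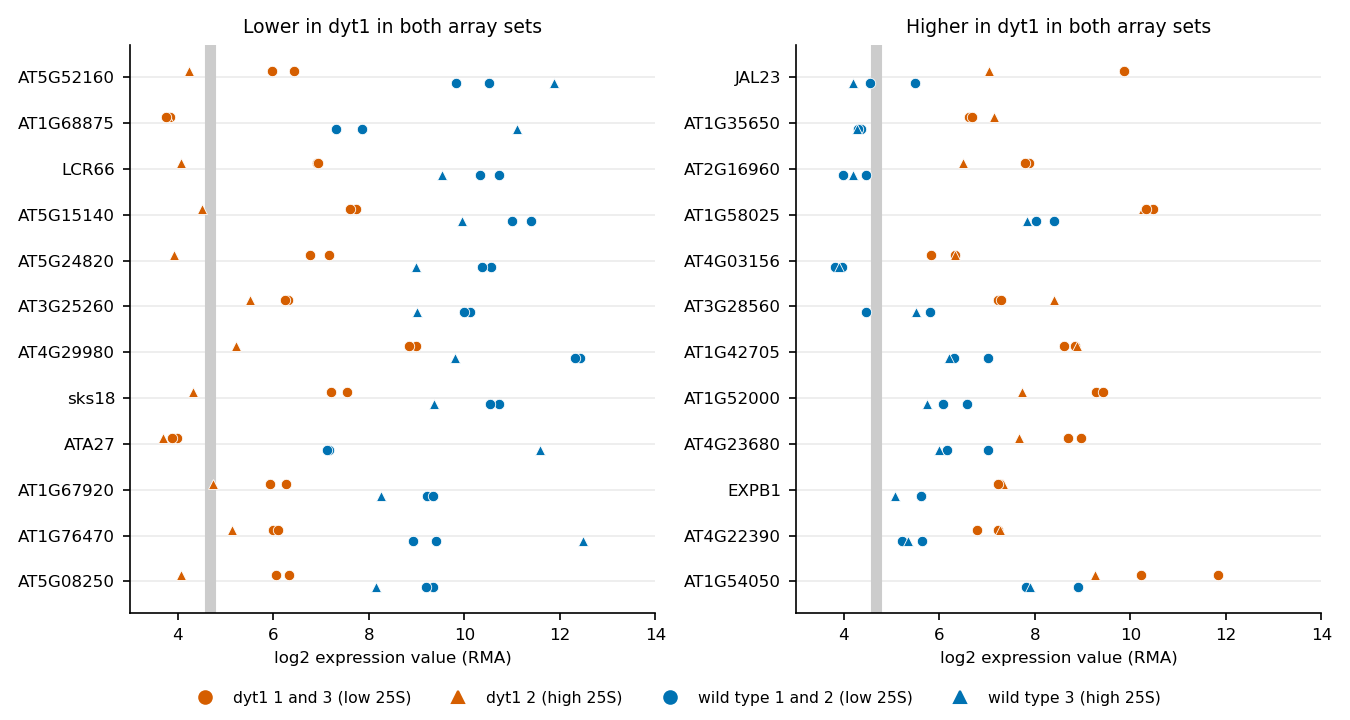
Log2 expression value of the 12 genes lower (left) and the 12 genes higher (right) in dyt1 in both array sets, ranked by the smaller of the set differences. Each point is an array, orange for dyt1 and blue for wild type, circles for the low 25S set and triangles for the high 25S set, and the grey band runs between the smallest and the largest lower quartile of an array, 4.58 and 4.77. In every gene the orange and blue points do not overlap, and among the lower genes the triangles often stand well apart from the circles of their colour.

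The 12 genes highest in dyt1 by the rule included a lectin, EXPB1 and loci with no annotated name. JAL23, a jacalin-related lectin, had levels of 9.87, 7.04 and 9.86 in dyt1, against 4.56, 5.49 and 4.199 in wild type. Its difference was 4.84 in the low set (adjusted p = 0.000603) and 2.84 in the high set, and the difference between the sets did not pass (adjusted p = 0.0572). JAL23 was ranked by these differences, so its low-set p comes from arrays that had chosen it. The wild type mean of 4.75 cannot be told from background. AT1G52000 had 9.28, 7.72 and 9.43 in dyt1, against 6.07, 6.58 and 5.75 in wild type (over all arrays 2.67, SE 0.47, adjusted p = 0.0733). AT3G28560 had 7.24, 8.41 and 7.29 in dyt1, against 4.47, 5.81 and 5.51 in wild type (2.38, SE 0.42, adjusted p = 0.0733). In AT3G28560 dyt1 2 was the highest array, while in AT1G52000 it was the lowest of the dyt1 arrays. AT4G23680 had 8.97, 7.68 and 8.70 in dyt1, against 6.17, 7.02 and 5.999 in wild type. AT1G54050 had 11.84, 9.27 and 10.22 in dyt1, against 8.90, 7.82 and 7.90 in wild type. In this last gene the lowest dyt1 array, dyt1 2, lay only just above the highest wild type array. AT1G35650, on a shared probe set, had 6.63, 7.14 and 6.69 in dyt1, against 4.36, 4.31 and 4.28 in wild type, where the mean cannot be told from background. AT1G42705, also on a shared probe set, had 8.85, 8.88 and 8.62 in dyt1, against 7.02, 6.31 and 6.20 in wild type. AT4G22390 had 7.22, 7.27 and 6.79 in dyt1, against 5.23, 5.63 and 5.35 in wild type. These 3 were among the called genes, and dyt1 2 was the highest dyt1 array in all of them.

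Of the tapetum lists, that of lipid transfer and the pollen coat held the largest share of genes lower in dyt1 in both sets. Of 7 measured members of that list, 6 were lower in both sets (85.7%, beside 0.958% of all genes) and 0 were called by limma over all arrays, where 6 had an unadjusted p under 0.05. Their median difference was -4.12 over all arrays, -2.59 in the low set and -7.27 in the high set. A9 (AT5G07230), a gene expressed in the tapetum and often used as its marker, had levels of 11.12, 4.68 and 10.81 in dyt1, against 13.02, 12.89 and 13.07 in wild type. The wild type arrays were level, dyt1 1 and 3 lay somewhat below them and dyt1 2 was at background. Over all arrays the difference of A9 was -4.12 (SE 1.43, limma adjusted p = 0.251). It was -1.99 in the low set (limma adjusted p = 0.00109, from arrays that the size rule had used) and -8.38 in the high set. AT3G52130 had 10.66, 5.35 and 10.56 in dyt1, against 13.37, 13.04 and 12.38 in wild type. AT1G66850 had 8.89, 4.97 and 8.54 in dyt1, against 11.84, 11.44 and 12.24 in wild type. AT5G62080 had 11.6, 7.12 and 11.5 in dyt1, against 13.5, 13.2 and 12.4 in wild type. These 3 lipid transfer proteins shared the pattern of A9, with dyt1 2 far below the other dyt1 arrays. The remaining member, AT1G75920, had 4.999, 4.48 and 4.56 in dyt1, where the mean cannot be told from background, against 5.45, 6.03 and 8.28 in wild type, and missed the rule in the low set with a difference of -0.96.

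Of 5 measured transcription factors and glutaredoxins of the tapetum, AMS was lower in both sets and called, and the other 4 were neither. BHLH089 (AT1G06170), a bHLH factor that acts with DYT1, had levels of 9.78, 5.78 and 9.60 in dyt1, against 9.98, 10.10 and 8.60 in wild type. BHLH091 (AT2G31210), a close relative, had 8.34, 4.73 and 8.10 in dyt1, against 7.24, 7.85 and 6.30 in wild type. In both genes dyt1 2 was the lowest array, wild type 3 was the lowest wild type array, and dyt1 1 and 3 were near or above wild type 1 and 2. The difference of BHLH089 between the sets was -2.47 (SE 0.46, adjusted p = 0.0102). ROXY1 and ROXY2, glutaredoxins of early anther development, had their highest level in dyt1 2. ROXY1 stood at 4.90, 7.03 and 5.50 in dyt1, against 5.25, 5.27 and 5.55 in wild type, and ROXY2 at 9.66, 10.3 and 9.43 in dyt1, against 8.98, 9.75 and 8.47 in wild type.

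Of 2 measured pollen wall genes 1 was lower in both sets, and of 4 measured cell death genes 1 was. The share over all genes was 0.958%, and lists this short give only a description. KNS4 (AT1G33430), a galactosyltransferase needed for the exine, had levels of 10.90, 5.73 and 10.52 in dyt1, against 13.14, 12.85 and 12.24 in wild type, and its differences of -2.28 and -6.51 differed between the sets (adjusted p = 0.0072). SWEET8, a sugar transporter needed for the exine, had 11.39, 10.27 and 11.36 in dyt1, against 11.18, 11.42 and 12.44 in wild type. In SWEET8 the low-set arrays overlapped and only the high-set arrays lay apart. RBOHE (AT1G19230), an NADPH oxidase of tapetal cell death, had 5.66, 3.70 and 5.21 in dyt1, against 8.34, 8.32 and 7.84 in wild type (difference -3.31, SE 0.55, adjusted p = 0.0650, low-set adjusted p = 0.00743). The dyt1 arrays all lay well below the wild type arrays in both sets. UND, an aspartic protease that controls tapetal cell death, had 4.38, 4.22 and 4.09 in dyt1, at background, against 4.98, 4.54 and 7.29 in wild type, where wild type 3 alone was high. BETA-VPE, a vacuolar processing enzyme, had 8.38, 5.25 and 8.52 in dyt1, against 6.93, 6.74 and 7.38 in wild type, so it was higher in dyt1 in the low set (1.61, adjusted p = 0.0173) and lower in the high set (-2.13). The levels of DELTA-VPE cannot be told from background in either genotype.

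**Figure D4:**
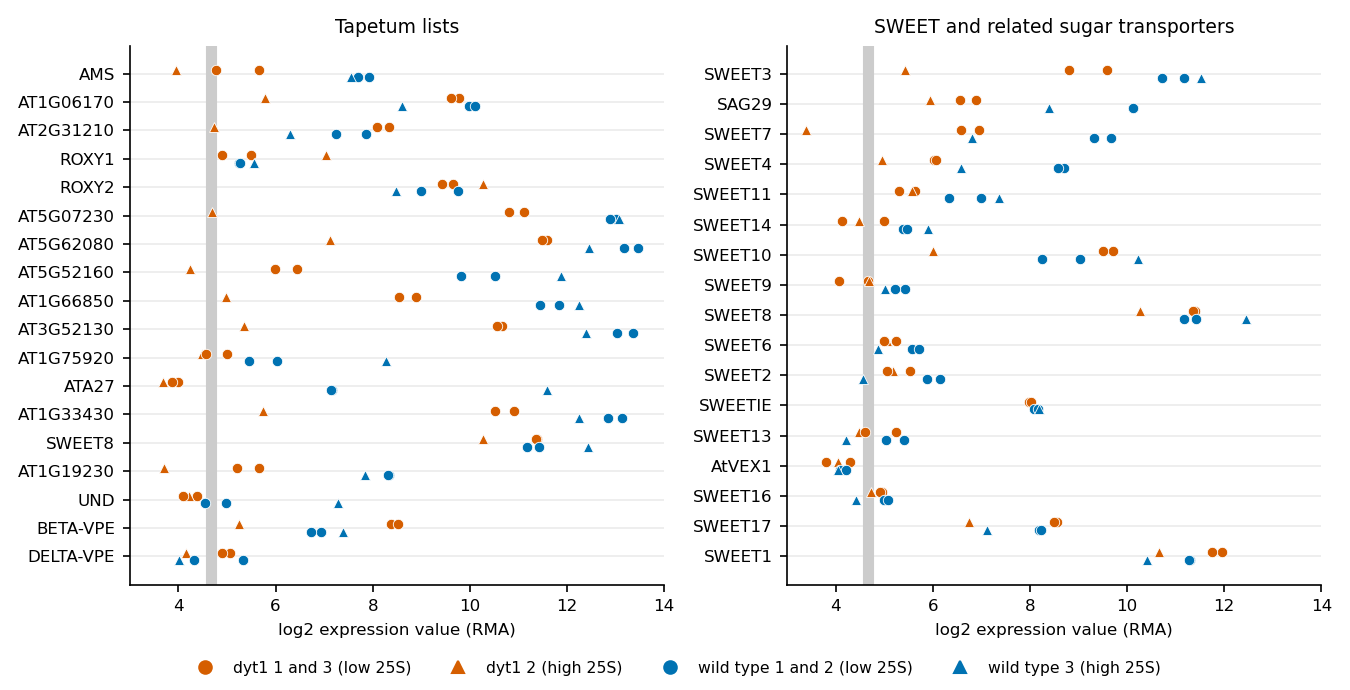
Log2 expression value of the measured genes of the tapetum lists (left) and of the SWEET family (right). Each point is an array, orange for dyt1 and blue for wild type, circles for the low 25S set and triangles for the high 25S set, and the grey band is the range of the arrays' lower quartiles. In the lipid transfer genes such as AT5G07230 (A9) and in AT1G33430 (KNS4) the orange triangle lies far left of the orange circles, which themselves lie left of the blue points.

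SWEET proteins carry sugars across membranes, and several of them supply developing pollen and seeds. Of 17 measured genes matched by this name, among them SWEETIE, which is not a transporter of the family, 5 were lower in dyt1 in both sets (29.4%, beside 0.958% of all genes), 0 were higher in both and 0 were called by limma over all arrays, where 7 had an unadjusted p under 0.05. SWEET15, listed as SAG29, had levels of 6.88, 5.95 and 6.55 in dyt1, against 10.12, 10.12 and 8.39 in wild type (difference -3.08, SE 0.51, adjusted p = 0.0650, low-set adjusted p = 0.00130). SWEET4 had 6.04, 4.95 and 6.06 in dyt1, against 8.71, 8.58 and 6.58 in wild type. SWEET11 had 5.62, 5.58 and 5.31 in dyt1, against 7.00, 6.33 and 7.37 in wild type. In these 3 genes the groups did not overlap, and in SWEET15 and SWEET4 wild type 3 was the lowest wild type array. SWEET7 had 6.94, 3.39 and 6.58 in dyt1, against 9.33, 9.67 and 6.81 in wild type, so that dyt1 1 lay just above wild type 3. SWEET3 had 9.59, 5.44 and 8.81 in dyt1, against 11.2, 10.7 and 11.5 in wild type. The median of the family was -0.68, beside 0.03 over all genes.

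Among all genes 1.17% were separated in both sets and 0.187% were called, so a count of 0 in a short list says nothing particular about it. Of the 8 measured meiosis genes, 0 were separated in both sets, 0 were called by limma and 0 had an unadjusted p under 0.05. Among them the synaptonemal complex gene ZYP1b had levels of 6.48, 5.57 and 6.41 in dyt1, against 6.18, 5.22 and 5.19 in wild type, and DFO, needed for meiotic DNA breaks, had 4.87, 4.77 and 5.27 in dyt1, against 5.77, 5.76 and 4.89 in wild type. The groups overlapped in both. The 4 early anther cell fate genes gave the same counts of 0. SPL (SPOROCYTELESS), which starts sporogenous cell formation, stood at 9.25, 9.11 and 9.28 in dyt1, against 9.59, 9.52 and 8.78 in wild type. JAG, a factor of stamen and petal shape, was highest in dyt1 2, with 4.91, 7.28 and 5.57 in dyt1, against 5.20, 5.08 and 5.97 in wild type. The Aurora kinases AUR1 and AUR2 of cell division and the 3 gibberellin receptors were not called either. AUR2 had 9.21, 9.45 and 9.34 in dyt1, against 8.77, 8.97 and 8.42 in wild type, without overlap but with an adjusted p of 0.265. GID1B had its highest level, 8.23, in dyt1 2, and GID1C its highest, 7.93, in wild type 3.

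Of 4 measured markers of maturing pollen, 1 was lower in both sets (25%, beside 0.958% of all genes). Of 2 measured markers of carpels and ovules and 3 of green tissue, 0 were. AT5G45880, from the list of maturing pollen, had levels of 5.68, 5.14 and 5.55 in dyt1, against 7.36, 7.76 and 6.23 in wild type (difference -1.66, SE 0.35, adjusted p = 0.106). The pollen histone MGH3 had 5.62, 5.12 and 5.55 in dyt1, against 5.06, 4.96 and 4.57 in wild type. The ovule gene INO had 4.67, 5.33 and 5.31 in dyt1, against 6.26, 6.05 and 5.63 in wild type, and SPT, a carpel factor, had 8.08, 9.24 and 8.44 in dyt1, against 7.79, 7.79 and 8.38 in wild type. None of these was called. Among the green tissue markers, RCA (rubisco activase) stood at 11.25, 11.13 and 11.25 in dyt1, against 11.77, 11.29 and 11.44 in wild type, and LHCB4.2 at 10.56, 10.13 and 10.28 in dyt1, against 10.18, 10.04 and 10.09 in wild type. ATHSP22.0, the only measured gene of the 9 on the heat shock list, had 8.87, 5.48 and 7.31 in dyt1, against 5.67, 5.45 and 5.59 in wild type. It was high in the low-set dyt1 arrays (2.53, adjusted p = 0.0181) and level in the high set. STZ, a zinc finger protein induced by stress, had 6.64, 5.22 and 6.28 in dyt1, against 6.79, 5.54 and 6.85 in wild type, which overlapped. The part of heat or other stress in the differences of either set was not tested.

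The larger families are set beside all genes, of which 0.958% were lower and 0.21% higher in both sets. Of 69 plastid-encoded genes, rpl16, a ribosomal protein of the plastid, was lower in both sets (1.45%), with 9.12, 7.38 and 9.08 in dyt1, against 10.62, 10.78 and 9.55 in wild type. None of the 28 genes matched by the name CYP or cytochrome P450, which include cyclophilins such as CYP59 and SQN, was separated in both sets. The same held for 51 UDP-glycosyltransferases and for 27 photosystem and antenna genes, many of them plastid-encoded and counted above. Of 19 genes matched as expansins, EXPB1 was higher in both sets. Among the other genes lower in both sets, MCCA, a subunit of the methylcrotonyl-CoA carboxylase of leucine breakdown, had differences of -1.28 in the low set and -3.28 in the high set. WNK9, a protein kinase, had -2.47 and -2.72, and F6'H1 (AT3G13610), which makes the precursor of the coumarin scopoletin, had -3.54 and -1.14. TBL43, of a family of wall polysaccharide acetyltransferases, had -2.28 and -1.20. Among the genes higher in both sets, APL4, a subunit of the starch enzyme ADP-glucose pyrophosphorylase, had 1.3 and 1.82, the MADS-box gene AGL87 1.16 and 2.23, and the DNA helicase RECQI1 1.07 and 1.11. These 7 genes were chosen after their values were seen, and none was called over all arrays.

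The place of the high 25S arrays within their own genotype varied among the separated genes. The rule used these arrays and favours a low dyt1 2 or a high wild type 3 among genes lower in dyt1, so the shares below are a description. Among the 128 genes lower in both sets, dyt1 2 lay at least 2-fold below the mean of dyt1 1 and 3 in 56 (43.75%, beside 7.08% of all genes). Wild type 3 lay at least 2-fold above the mean of wild type 1 and 2 in 38 (29.7%, beside 8.06% of all genes) and at least 2-fold below it in 29. Both arrays lay within 2-fold of their genotype in 35. The low-set difference of the 128 genes passed at an adjusted p under 0.05 in 92, beside 2126 of all genes (15.9%), although the rule had used the same arrays. Of the 28 genes higher in both sets, 21 had both high-set arrays within 2-fold of their genotype, and the low-set difference passed in 26.

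**Figure D5:**
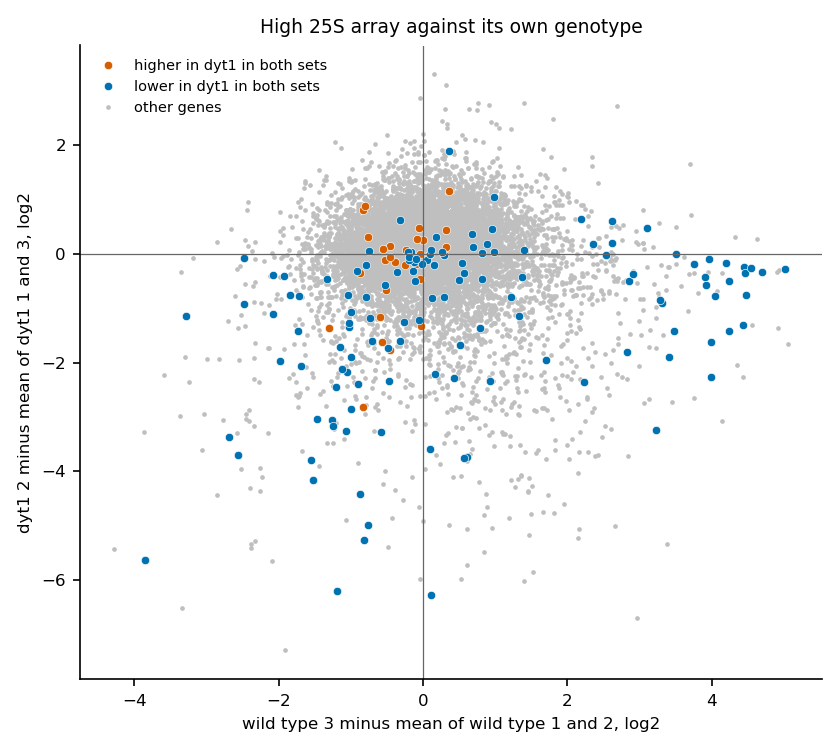
Position of the high 25S array relative to the low 25S arrays of its own genotype, in log2, for dyt1 2 (vertical axis) and wild type 3 (horizontal axis). Blue points are the 128 genes lower and orange points the 28 genes higher in dyt1 in both sets, and grey points are the other genes. Many blue points lie far below 0 on the vertical axis or far right of 0 on the horizontal one, while the orange points stay near the centre or below it.

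In the 250 genes that were higher in dyt1 in the low set and lower in the high set, at least 1 high-set array must by this choice lie apart from its genotype. In 237 of them (94.8%) dyt1 2 lay at least 2-fold below dyt1 1 and 3, and in 163 wild type 3 lay at least 2-fold above wild type 1 and 2. Their median difference was 1.61 in the low set and -2.12 in the high set. AT4G04460 had levels of 11.51, 4.68 and 11.25 in dyt1, against 8.06, 8.23 and 11.12 in wild type. AT1G53540 had 10.74, 4.68 and 9.08 in dyt1, against 4.70, 4.47 and 6.73 in wild type. In both genes dyt1 1 and 3 were far above wild type 1 and 2, and dyt1 2 lay below wild type 3.

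The separated genes lay on all 5 nuclear chromosomes. Those lower in both sets made up 1.35%, 0.692%, 0.882%, 0.568% and 1.04% of the measured genes of chromosomes 1, 2, 3, 4 and 5, and those higher 0.41%, 0.323%, 0.0735%, 0.207% and 0.0335%. On chromosome 4, where DYT1 lies, 11 of 1935 genes were lower and 4 were higher in both sets. Their distance from DYT1 along the chromosome was not examined.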

How the data were processed

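For 9 Affymetrix arrays the authors deposited log2 values, 1 for each probe set, which per the submitters' processing notes came from RMA of unstated version. This method subtracts background, quantile normalizes and summarises the probes of a set. The table held 22810 probe sets, and 64 controls were left out of tests. The platform annotation gave 13513 of the 22746 others 1 gene, 503 several and 8730 none; 13436 matched RefSeq (TAIR10.1) by gene ID. Where a gene had several probe sets (147 genes), that of highest mean was used. The array's build is not given, so no coordinates are printed.

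Group means over the 9 arrays were fitted in R 4.3.3 with limma 3.58.1 (lmFit, eBayes), with Benjamini-Hochberg adjustment over 22746 probe sets and calls at an adjusted p under 0.05. A fit of 5 cells of genotype by array set gave the low-set test and the test between sets. For genes chosen by the size rule, the low-set p comes from arrays that the rule had used. The scripts were tested on simulated data. The members, the gene lists (17 lists of 227 genes, 49 measured, and 15 families) and the named genes were chosen with earlier results of these data known. The rule named DYT1, AMS, the 12 genes in each direction with the largest smaller set difference, up to 4 called or separated members of each list, up to 2 members of each list with the largest change, and the 6 genes in each direction with the largest difference between sets. Lists with no measured gene were callase, endothecium and jasmonate. The number of arrays limits the precision. Same-numbered arrays of dyt1 and wild type deviated together only weakly (0.080, 0.155 and 0.043), so the numbers were not taken to pair them. For the high-set arrays, dyt1 2 and wild type 3, the same correlation of deviations was -0.053. Slide and scan date were not used here.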

Additional observations from a re-analysis of the deposited data

Results flagged for a closer look

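In 18 of the named genes, limma's test of the difference between the array sets passed at an adjusted p under 0.05. Most of them, listed below with the most negative and most positive values, were named for the size of this difference. Their passing was therefore largely fixed by that choice, and the count of 18 is a description. Over all genes the test passed in 2740 (20.5%). The value given is the high-set difference, dyt1 2 minus wild type 3, less the low-set difference. The lone high-set arrays are assumed to vary like the others, although they lay further from their genotype than its other arrays from each other.

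Of the genes separated in both sets, 3 of those lower in dyt1 had the more negative difference in the high set. The value was -3.50 for AT1G68875 (adjusted p = 0.0236), -4.44 for the lipid transfer protein AT3G52130 (adjusted p = 0.0339) and -4.22 for KNS4 (AT1G33430, adjusted p = 0.0072). SWEET4 had a value of 0.972 (adjusted p = 0.0336), with the smaller difference in the high set. AT2G16960, higher in dyt1 in both sets, had -1.31 (adjusted p = 0.0310). BHLH089 (AT1G06170) had -2.47 (adjusted p = 0.0102) and was not separated in the low set.

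The 6 genes with the most negative values were AT4G04460 (-9.67), AT3G19390 (-8.72), AT5G16920 (-7.66), AT5G61110 (-7.43), AT1G60240 (-7.39) and AT1G53540 (-7.37). AT3G19390 had levels of 10.23, 4.75 and 9.94 in dyt1 1, 2 and 3, against 7.27, 6.54 and 10.29 in wild type 1, 2 and 3. AT5G16920 had 9.07, 4.11 and 9.16 in dyt1, against 10.32, 8.50 and 12.07 in wild type. AT5G61110 had 10.07, 3.94 and 9.85 in dyt1, against 7.96, 7.35 and 9.05 in wild type. In these genes dyt1 2 was low and wild type 3 was high within its genotype, except that AT5G16920 was not higher in dyt1 in the low set. AT1G60240 had 9.39, 3.33 and 8.99 in dyt1, against 6.69, 6.14 and 7.94 in wild type, with the same order.

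The 6 genes with the most positive values were AT3G09470 (3.36), AT4G13600 (3.28), AT1G54020 (3.24), AT1G47655 (3.15), AT5G62210 (3.10) and AT5G57500 (3.10). AT3G09470 had 8.70, 9.85 and 9.10 in dyt1, against 10.54, 11.12 and 8.42 in wild type. AT4G13600 had 5.75, 7.94 and 6.02 in dyt1, against 7.51, 8.10 and 6.58 in wild type. AT1G54020 had 4.92, 5.82 and 5.11 in dyt1, against 5.79, 7.26 and 4.09 in wild type. In these 3 genes dyt1 2 was the highest dyt1 array and wild type 3 the lowest wild type array. AT1G47655 had 5.01, 8.68 and 5.75 in dyt1, against 6.02, 6.12 and 6.22 in wild type, so dyt1 2 alone stood apart. AT5G62210 had 9.52, 9.93 and 9.44 in dyt1, against 9.59, 9.62 and 6.95 in wild type. AT5G57500 had 3.96, 3.92 and 4.03 in dyt1, at background, against 6.56, 7.64 and 3.92 in wild type. In both of these wild type 3 was the lowest wild type array. In AT5G62210 it was also below every dyt1 array, while in AT5G57500 the dyt1 arrays were as low as wild type 3.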

How the results depend on the processing

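The 44 called probe sets were 8 with dyt1 and wild type arrays only, 274 with array set as a block, 29 when quantile normalized again, 90 with a floor at the 20th percentile, 8744 with array weights and 3720 without dyt1 2 and wild type 3; the cause was not tested. Leaving out 1 array gave 1 (without dyt1 3) to 702 (without dyt1 2). The replicate block gave 54, of which 28 were among the 44, and centring, the intensity trend, control probe sets, dim probe sets and the 2-fold limit gave 43 to 51. Centring each array on its median moved the median of all probe sets to -0.06, from 0.05, and divided its 44 calls into 10 higher and 34 lower, against 17 and 27. No paired value is given beside single results because the numbers were not taken to pair the arrays.

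The 156 genes separated in both sets were 449 at 1.5-fold, 49 at 4-fold and 854 by the low set alone, a setting added after seeing the data. The floor, the choice of probe set, both normalizations and single omissions gave 143 to 200. Centring also made 7 of 7 lipid transfer and pollen coat genes and 6 of 17 SWEET genes lower in both sets. The 4735 probe sets that differed between sets were 2436 (without dyt1 1) to 4908 (without ams 3) with 1 array left out, 2895 without wild type 2, and 4337 to 5738 in the other settings. Centring divided them into 3684 more positive and 2054 more negative in the high set, against 2333 and 2402.

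Of 67 named genes, 15 changed sign in some setting, and none of these was called over all arrays. With 1 array left out the difference ranged between -1.87 and 0.13 for BHLH089, -0.18 and 1.01 for JAG, -0.34 and 0.065 for SPL, -0.11 and 0.20 for AUR1, -0.11 and 0.79 for GID1B, -0.77 and 0.068 for STZ, -1.17 and 2.24 for AT4G04460, -0.69 and 2.05 for AT3G19390, -1.23 and 1.84 for AT5G61110, -0.76 and 2.27 for AT1G60240, -1.24 and 0.35 for AT1G54020 and -0.74 and 1.09 for AT1G47655. Without dyt1 2 and wild type 3 it was 0.071 for SWEET8, -0.15 for AUR1, 0.30 for STZ, -0.027 for the reference gene AT4G34270, 2.31 for AT5G61110, -0.69 for AT1G47655 and -0.12 for AT5G62210. With array weights it was 0.044 for SWEET8, -0.061 for AUR1, 1.93 for AT5G61110, -0.32 for AT1G47655 and -0.044 for AT5G62210. It was -0.059 for AUR1 and -0.10 for AT4G04460 with each array centred on its median, and -0.024 and -0.12 when quantile normalized again.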

Other observations

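Transporters of the NPF family, which carry nitrate, peptides, hormones and other small molecules, were looked at after the values were seen because NPF4.1 was called. Of 11 measured members, 3 were lower in dyt1 in both array sets (27.3%, beside 0.958% of all genes), 0 were higher in both and 1 was called. NPF3.1 (AT1G68570) had levels of 5.52, 7.30 and 5.32 in dyt1 1, 2 and 3, against 8.48, 8.38 and 8.79 in wild type 1, 2 and 3 (difference -2.50, SE 0.48, limma adjusted p = 0.0847). NPF6.2 (AT2G26690) had 7.54, 6.53 and 7.36 in dyt1, against 10.49, 10.15 and 7.84 in wild type (difference -2.35, SE 0.64, adjusted p = 0.175). In NPF3.1 dyt1 2 was the highest dyt1 array, and in NPF6.2 wild type 3 was the lowest wild type array. The glucosinolate transporters GTR1 and GTR2, also of the family, had differences of 0.06 and -0.13. The family was chosen on these values, so its count is a description.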
